A study of Mus musculus with 4 samples.

Results

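The genes described are the E2 ubiquitin conjugating enzymes of mouse microglia, taken by their shared symbol. A row was a member when its symbol began with Ube2 and a further letter, and Ube2c was left out, which gave 42 members of 56832 gene rows. All 42 were found in the GENCODE annotation, on 17 chromosomes, as 36 protein-coding genes, 4 processed pseudogenes, 1 transcribed unprocessed pseudogene and 1 antisense RNA. The symbol also took in Ube2cbp, which RefSeq lists with the synonym Ube3d and which is not an E2 enzyme.

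RNA was sequenced from 4 libraries of naïve microglia, the resident macrophages of the brain. They came from female C57BL/6 mice labelled as having no intervention, which were litter mates of transplanted mice in a study of brain myeloid cell replacement by hematopoietic grafts. The cells were sorted on low or intermediate CD45 with CD11b, and total RNA was made into libraries with a low-input kit. The labels give no age and do not say whether each library came from its own animal, so p-values measure only the spread between these libraries, which may be technical. There was 1 group, so no contrast between conditions was possible, and graft-derived cells were not analysed here.

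Ubiquitin is passed along a relay of enzymes. An E1 enzyme activates ubiquitin at the cost of ATP, an E2 carries it on its active-site cysteine, and an E3 ligase brings the loaded E2 to the protein to be marked. Because the E2 often sets which kind of chain is built, the family separates signals for destruction by the proteasome from signals for DNA repair, trafficking and immune signalling. A few E2 enzymes carry relatives of ubiquitin, among them SUMO, NEDD8 and the interferon-induced ISG15. In microglia and other macrophages, ubiquitin chains are known for relaying signals from Toll-like and cytokine receptors.

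Some members are near copies of each other, and their sequences decide how far a count can be assigned to 1 gene. The coding sequence of Ube2n, the E2 that builds signalling chains, was aligned with its processed pseudogenes Ube2n-ps1 and Ube2nl in GENCODE transcripts of GRCm38. Ube2n-ps1 matched Ube2n at 459 of 459 bases, and Ube2nl matched it at 442 of 456 bases (96.9%) with a longest identical run of 154 bases. Bases 76 to 135 of the Ube2n coding sequence are shown for the genes on chromosomes 10, 5 and 7. Capitals mark the 5 columns where any copy differs. This stretch was picked as a window of 60 bases with the most differing columns, so it is not typical of the whole sequence.
Ube2n: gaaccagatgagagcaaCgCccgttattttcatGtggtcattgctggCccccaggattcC
Ube2n-ps1: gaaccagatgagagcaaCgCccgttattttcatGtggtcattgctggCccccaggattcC
Ube2nl: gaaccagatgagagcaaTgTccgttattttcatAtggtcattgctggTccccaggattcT
Over these 60 bases Ube2n and Ube2n-ps1 read the same, and Ube2nl differs at 5 bases.

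The UBE2D genes stand further apart. The coding sequence of Ube2d3 was 83.8% identical to that of Ube2d2a and 77.3% identical to that of Ube2d1, and the pseudogene Ube2d-ps was 76.8% identical to Ube2d1. Bases 351 to 410 of the Ube2d3 coding sequence are shown for Ube2d3 on chromosome 3, Ube2d1 on chromosome 10 and Ube2d-ps on chromosome 11, because the levels of these genes are compared further on. The window was again one with the most differing columns, and capitals mark the 25 columns that differ among them.
Ube2d3: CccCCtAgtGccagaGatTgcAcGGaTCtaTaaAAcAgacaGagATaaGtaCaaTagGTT
Ube2d1: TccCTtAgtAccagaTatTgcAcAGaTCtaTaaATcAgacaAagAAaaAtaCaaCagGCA
Ube2d-ps: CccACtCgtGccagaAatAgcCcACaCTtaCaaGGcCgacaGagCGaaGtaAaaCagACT
Ube2d1 differs from Ube2d3 at 12 of these 60 bases and Ube2d-ps at 19. The RAD6 pair Ube2b, on chromosome 11, and Ube2a, on chromosome X, was 77.6% identical over 459 coding bases. Bases 16 to 75, picked in the same way, are shown with their 20 differing columns in capitals.
Ube2b: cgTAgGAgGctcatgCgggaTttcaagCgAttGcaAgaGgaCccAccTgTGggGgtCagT
Ube2a: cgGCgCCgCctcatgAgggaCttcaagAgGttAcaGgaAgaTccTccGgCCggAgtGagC
The differences are spread along the whole stretch, in contrast to Ube2n and Ube2n-ps1, which have none.

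The libraries held 20606776, 22576720, 23292655 and 20360121 counts assigned to genes in replicates 1 to 4, and all values follow in that order. A floor of 3 counts was worth 0.129 to 0.147 CPM (counts scaled to a library total of 1000000), and the floor covers counting error only. All 10 microglia markers passed 100 CPM in every library, and their summed CPM was 56203, 30050.1, 31150.5 and 58314. Other listed genes also differed between libraries. In every library 17 of 18 immediate early genes, 9 of 9 neutrophil markers, 7 of 7 oligodendrocyte markers and 0 of 7 T and NK cell markers reached 1 CPM. Immediate early genes summed to 5483, 59593, 51732 and 5759 CPM, neutrophil markers to 1528, 311, 293 and 2409 CPM and oligodendrocyte markers to 486, 1789, 1819 and 587 CPM. Genes with any count numbered 14850, 18978, 18431 and 13944, fewest in replicate 4. Red blood cell markers, 3 of 7 of which reached 1 CPM in every library, summed to 42.4, 19.9, 17.1 and 76.9 CPM. B cell markers, with 1 of 5 at that level, summed to 86.1, 19.1, 25.8 and 61.3 CPM. Of these lists, Slc4a1 of red blood cells and Ms4a1 of B cells were among those at 0 throughout. Whether these differences play a part in the values of Ube2 genes was not tested.

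Most of the family was expressed. In every library, 26 of the 42 members reached 1 CPM, against 14.8% of all gene rows. Counting protein-coding genes alone, 25 of 36 members (69.4%) reached it, against 35.5% of the 21187 protein-coding genes. At 10 CPM in every library there were still 21 members. Together the members took 2437, 2340, 2414 and 2987 CPM, which is 0.254% ± 0.0298 (SD, n = 4) of the counts. The summed level was highest in replicate 4, the library with the fewest genes detected. Without that library the mean sum was 2397 CPM.

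**Figure D1:**
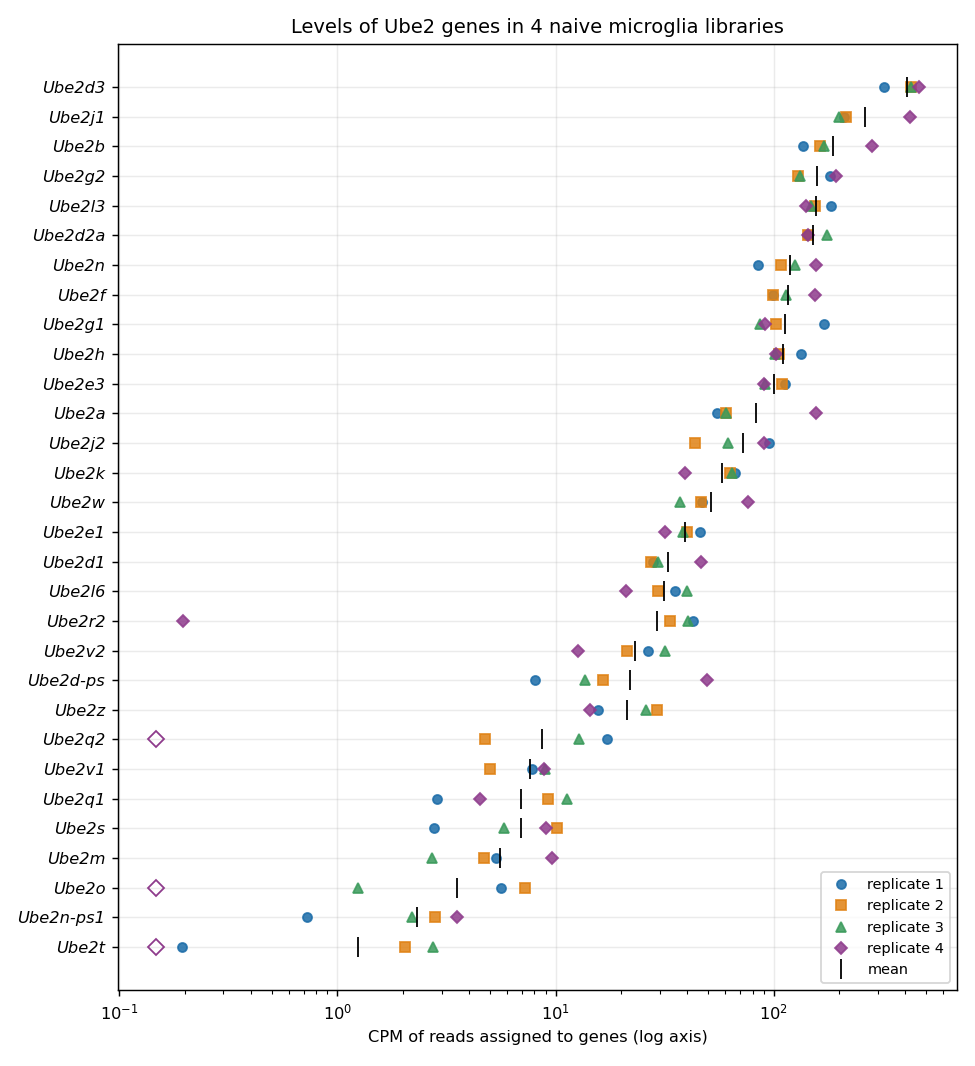
Levels of 30 of the 31 Ube2 genes with a mean of 1 CPM or more in 4 naïve microglia libraries, in CPM on a log axis, with a point for each library and a tick for the mean. Open symbols at the left are values of 3 counts or fewer, drawn at the floor. Points of most genes lie close together, while Ube2r2, Ube2q2, Ube2o and Ube2t have a replicate 4 value far to the left of the mean, joined in Ube2t by replicate 1.

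Levels of different members were compared per length. Per kb of the longest coding transcript, Ube2d3 averaged 107 ± 16.2 CPM per kb and Ube2b 105 ± 36.2 CPM per kb (SD, n = 4). Next came Ube2g2 with 78.1 ± 16.3, Ube2j1 with 74.2 ± 30.6 and Ube2d2a with 61.0 ± 6.60 CPM per kb. The lower end of the 31 genes with a mean of 1 CPM or more held Ube2q1 with 2.26 ± 1.28, Ube2t with 1.12 ± 1.22 and Ube2o with 0.679 ± 0.660 CPM per kb. Neighbours in this order were mostly not separated. Of 30 neighbouring pairs, 3 kept their order in 4 of 4 libraries, namely Ube2e1 above Ube2h, Ube2l6 above Ube2k and Ube2q1 above Ube2t. The gap exceeded the SD of both genes in 3 pairs, among them Ube2e3 above Ube2n and Ube2l6 above Ube2k. The length used matters most for Ube2d3, whose annotated exons together span 24499 bases against 3833 bases for its longest coding transcript. Divided by all exons, Ube2d3 had 16.7 CPM per kb and Ube2b, then the highest member, 88.5 CPM per kb.

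The broadly acting E2 enzymes of the UBE2D group serve many RING and HECT ligases and often place the ubiquitin that starts a chain. Ube2d3 had 320.3, 424, 427 and 465 CPM in replicates 1 to 4 (mean 409 ± 62.2, SD, n = 4). Ube2d2a, a close relative of Ube2d3, had 143, 143, 176 and 143 CPM (mean 151 ± 16.4). Replicates 1, 2 and 4 of Ube2d2a lay together and replicate 3 above them. Ube2d1 had 28.0, 27.4, 29.6 and 46.7 CPM (mean 32.9 ± 9.21), with replicate 4 above the other 3. Per kb of all annotated exons, the scale of every pair ratio given unless another is named, the log2 ratio of Ube2d3 over Ube2d1 was 1.17 ± 0.30 (SD, n = 4) and that of Ube2d3 over Ube2d2a was 0.35 ± 0.25. Ube2d3 was the higher gene in 4 of 4 libraries in both pairs on this length. Ube2d3 over Ube2d1 was 1.05 per kb of the longest transcript, 2.24 per kb of the longest coding transcript and 3.66 with no length correction, so its size depends on the length while its direction does not. Ube2d3 over Ube2d2a was 0.19, 0.80 and 1.43 on these scales, and per kb of the longest transcript Ube2d3 was higher in 3 of 4 libraries, not in replicate 1. The pseudogene Ube2d-ps had 8.06, 16.5, 13.6 and 49.4 CPM (mean 21.9 ± 18.7), the widest relative spread of the members with a mean of 10 CPM or more. Without replicate 4 its mean was 12.7 CPM. Its level is uncertain as far as reads could be shared with the UBE2D genes, which was not tested. In the aligned sequence, its longest identical run was 17 bases with Ube2d3 and 14 with Ube2d1 or Ube2d2a.

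Ube2d2b, Ube2d4, Ube2dnl1 and Ube2dnl2, further members of the UBE2D group, had 0 counts in all 4 libraries. A count of 0 allows a level up to the floor of 0.129 to 0.147 CPM. The UBE2E genes encode relatives of UBE2D with an extended N-terminus. Ube2e1 had 46.0, 40.0, 38.5 and 31.6 CPM (mean 39.04 ± 5.91) and Ube2e3 had 112, 109, 91.6 and 90.6 CPM (mean 101 ± 11.4). The log2 ratio of Ube2e1 over Ube2e3 per kb was -1.40 ± 0.13, so Ube2e3 was higher in every library and the ratio spread little. Ube2e2 had 0, 25, 22 and 25 counts, none in replicate 1 and close to each other in the other 3. Its mean was 0.820 ± 0.559 CPM. Ube2e1 over Ube2e2 was 6.56 ± 2.94 log2 per kb, in which the replicate 1 value rests on the pseudocount of 0.5. Without replicate 1 it was 5.10 ± 0.34, and with a pseudocount of 5 it was 5.55. Ube2w, which attaches ubiquitin to the N-terminus of proteins, had 46.8, 46.4, 37.4 and 76.2 CPM (mean 51.7 ± 16.9), with replicate 4 above the rest.

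Ube2n builds chains that act in signalling and DNA repair, together with Ube2v1 or Ube2v2, partners that resemble E2 enzymes but lack the active-site cysteine. Ube2n had 84.7, 108, 125 and 156 CPM (mean 118 ± 30.0). Ube2v1 had 7.81, 5.01, 8.93 and 8.89 CPM (mean 7.66 ± 1.84) and Ube2v2 had 26.5, 21.2, 31.8 and 12.6 CPM (mean 23.05 ± 8.19). Both partners were lower than Ube2n per kb in every library, with a log2 ratio of -3.31 ± 0.43 for Ube2v1 over Ube2n and -3.16 ± 0.86 for Ube2v2 over Ube2n. Ube2n-ps1 had 15, 63, 51 and 72 counts and Ube2nl 10, 12, 24 and 20 counts. With the coding sequence of Ube2n-ps1 the same as that of Ube2n, reads from that stretch fit both genes. The counts of these pseudogenes are therefore uncertain, as are the level of Ube2n and the ratios of Ube2v1 and Ube2v2 over it. Reads aligned at more than 1 place were kept apart from the gene rows and came to 3.46% to 4.03% of all reads listed.

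Several members build the chains that send proteins to the proteasome. Ube2k, which makes such chains on its own, had 66.6, 63.1, 64.2 and 39.1 CPM (mean 58.3 ± 12.8), with replicate 4 below the other 3. Ube2g1 and Ube2r2 work with cullin-RING ligases. Ube2g1 had 169.8, 103, 86.4 and 91.1 CPM (mean 112 ± 38.8), with replicate 1 above the others. Ube2r2 had 42.6, 33.4, 40.4 and 0.196 CPM, from 878, 754, 942 and 4 counts. It was thus close to its own level in replicates 1 to 3 and near the floor in replicate 4. Its partner by descent, Cdc34, had 2.14, 7.84, 4.29 and 5.11 CPM, and the log2 ratio of Ube2r2 over Cdc34 per kb was 2.89, 0.67, 1.82 and -5.95, positive in 3 libraries and negative in replicate 4. Of the 22 members at 10 CPM or more in replicates 1 to 3, Ube2r2 was the 1 member below 1 CPM in replicate 4 (4.55%), while 8.53% of all genes chosen in the same way were below it. Ube2s, which extends chains for the anaphase-promoting complex in dividing cells, had 2.77, 10.2, 5.80 and 9.04 CPM (mean 6.95 ± 3.35). The 12 proliferation genes listed, of which 1 reached 1 CPM in every library, summed to 76.0, 48.5, 59.1 and 80.7 CPM.

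Ube2j1, Ube2j2 and Ube2g2 act in the removal of misfolded proteins from the endoplasmic reticulum, where the UBE2J proteins are anchored in the membrane. Ube2j1 had 211, 214, 200.1 and 424 CPM (mean 262 ± 108). Replicates 1 to 3 lay close together and replicate 4 stood far above them. Ube2j2 had 95.2, 43.8, 61.8 and 90.1 CPM (mean 72.7 ± 24.2), with replicates 1 and 4 above the other 2. Ube2g2 had 181, 129, 132 and 193 CPM (mean 159 ± 33.1), again with replicates 1 and 4 high. The ratio of Ube2j1 over Ube2j2 per kb was 2.16 ± 0.53 on the log2 scale, and that of Ube2g1 over Ube2g2 was -1.44 ± 0.43. Each kept 1 direction in 4 of 4 libraries.

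Ube2a and Ube2b are the mammalian RAD6 enzymes, which ubiquitylate histone H2B and act in the tolerance of DNA damage. Ube2a had 55.2, 60.3, 60.2 and 156 CPM (mean 82.9 ± 48.9) and Ube2b had 137, 163, 170.0 and 283 CPM (mean 188 ± 64.9). Both were highest in replicate 4, and in Ube2a the other 3 libraries lay within a narrow range. Their ratio moved less than their levels, at -1.37 ± 0.29 log2 for Ube2a over Ube2b per kb. Summed over both genes the level was 192, 223, 230.2 and 439 CPM. Ube2t, the E2 of the Fanconi anaemia pathway, had 4, 46, 64 and 0 counts. In replicates 2 and 3 it was above the floor and in replicate 4 at 0, where the mean of the other libraries was at least 11.3-fold higher than the per-library floor of 3 counts. Replicates 2 and 3 also had the most oligodendrocyte marker and immediate early CPM, and the part of either was not tested.

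Other E2 enzymes carry modifiers that resemble ubiquitin. Of the NEDD8 enzymes, Ube2m had 5.34, 4.70, 2.705 and 9.63 CPM (mean 5.59 ± 2.91) and Ube2f had 99.3, 99.4, 114 and 155 CPM (mean 117 ± 26.5). Ube2f was higher per kb in every library. Ube2m over Ube2f was -2.59 ± 0.61 log2 per kb. Ube2l6, the E2 for ISG15, had 35.2, 29.4, 40.0 and 20.97 CPM (mean 31.4 ± 8.19). It was lowest in replicate 4, as was Isg15, named after its values were seen, with 8.88, 22.7, 22.2 and 5.99 CPM. The summed CPM of interferon-stimulated genes was 407, 493, 471 and 499, and the part of that signal was not tested. Ube2l3, a relative of Ube2l6 that serves HECT ligases and RBR ligases such as parkin, had 183, 155, 148 and 141 CPM (mean 157 ± 18.5). Ube2l3 was higher than Ube2l6 per kb in every library, by 0.80 ± 0.35 log2. Ube2l3-ps1, its processed pseudogene with 92.2% identity, had 0 counts in all 4 libraries.

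The remaining members are large or atypical enzymes. Ube2h, which works with the CTLH ligase complex, had 133, 106, 101 and 102 CPM (mean 111 ± 15.1), with replicate 1 above the rest. Ube2z, which is loaded by the E1 enzyme Uba6, had 15.6, 29.3, 26.1 and 14.4 CPM (mean 21.3 ± 7.44), with replicates 2 and 3 above the other 2. Ube2q2 had 17.2, 4.74, 12.8 and 0 CPM from 354, 107, 297 and 0 counts, and Ube2q1 had 2.86, 9.21, 11.2 and 4.52 CPM. Their log2 ratio, Ube2q1 over Ube2q2 per kb, was -3.10, 0.43, -0.71 and 7.01, so neither gene was higher throughout. In replicate 4 Ube2q2 was at 0, and the mean of the other libraries was at least 78.4-fold higher than the floor there. Ube2o, a large protein with E2 and E3 activity that clears proteins in maturing red blood cells, had 116, 163, 29 and 1 counts. The 1 count in replicate 4 has an exact 95% Poisson interval of 0.0253 to 5.57 counts, which covers counting error only and not the spread between libraries. Ube2ql1 had 0, 7, 41 and 0 counts and Ube2cbp 0, 15, 39 and 0 counts, both at 0 in replicates 1 and 4 and detected in replicates 2 and 3. Ube2u and its antisense RNA Ube2uos had 0 counts in all libraries. In bulk samples, fewer cells of a type and less RNA per cell cannot be told apart.

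**Figure D2:**
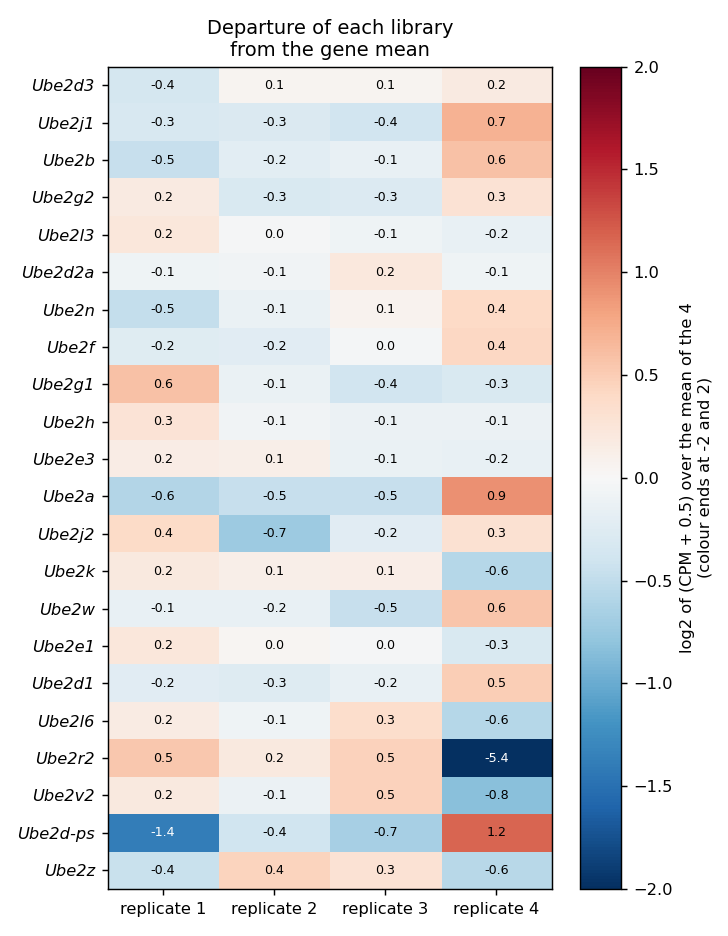
Departure of each library from the gene mean for 22 of the 23 Ube2 genes with a mean of 10 CPM or more, as the log2 of (CPM + 0.5) over the mean of 4 libraries, with red above and blue below the mean. The replicate 4 column holds both the strongest red cells, in Ube2d-ps, Ube2a and Ube2j1, and the strongest blue cell, Ube2r2.

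Replicate 4 held the highest or the lowest value of most members, as it did of most genes with a mean of 10 CPM or more. Of the 23 members with a mean of 10 CPM or more, 11 were highest in replicate 4 (47.8%), against 36% of the 8175 genes with such a mean. A further 8 were lowest in it (34.8%), against 37.7% of those genes. Replicate 4 was also the library with the fewest genes detected and the highest summed neutrophil markers, and the part of either was not tested.

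No member's spread between libraries passed a test. The spread of each gene was compared with the trend for genes of like expression in edgeR's quasi-likelihood fit, with Benjamini-Hochberg adjustment over 9075 genes. The test called 0 of 28 members tested, beside a background of 0% of all genes. At an unadjusted p below 0.05 there were again 0 members, against 4.3% of all genes (390 of 9075), and DESeq2 marked 0 dispersion outliers. The lowest p of a member was 0.197 for Ube2a, with an adjusted p of 0.944 in edgeR, which was also the lowest adjusted p of any gene.

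Members lay mostly below the trend. The median log2 ratio of quasi-dispersion to the trend was -0.77 in the 28 members and -0.08 in all genes tested, and 9 members (32.1%) lay above the trend against 48.3% of genes. The median of the members was -1.28 without replicate 1 (all genes -0.10) and -0.92 without replicate 2 (all genes -0.36). Without replicate 3 it was -1.24 (all genes -0.34) and without replicate 4 it was -1.35 (all genes -0.31). The highest ratios were those of Ube2a (1.28), Ube2d-ps (1.14), Ube2n-ps1 (1.10) and Ube2j1 (0.83). Among the lowest were those of Ube2e1 (-2.54), Ube2v1 (-2.36) and Ube2e3 (-2.30). The median coefficient of variation (CV, the SD over the mean) was 26.1% over the 23 members with a mean of 10 CPM or more and 40.2% over all such genes. A CV under 20% was found in 7 of the 23 (30.4%), against 15.1% of those genes. The ratios to the trend describe only the members that passed the test's filter on low counts, which removed 7 of the 35 members with counts. These were Ube2r2, Ube2q2, Ube2o, Ube2t, Ube2e2, Ube2cbp and Ube2ql1, each near or at 0 in 1 or more libraries. With no filter, 35 members entered the fit, 0 were called, and Ube2r2 alone had an unadjusted p below 0.05 (adjusted p = 0.826 in edgeR), against 2.15% of 21681 genes.

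**Figure D3:**
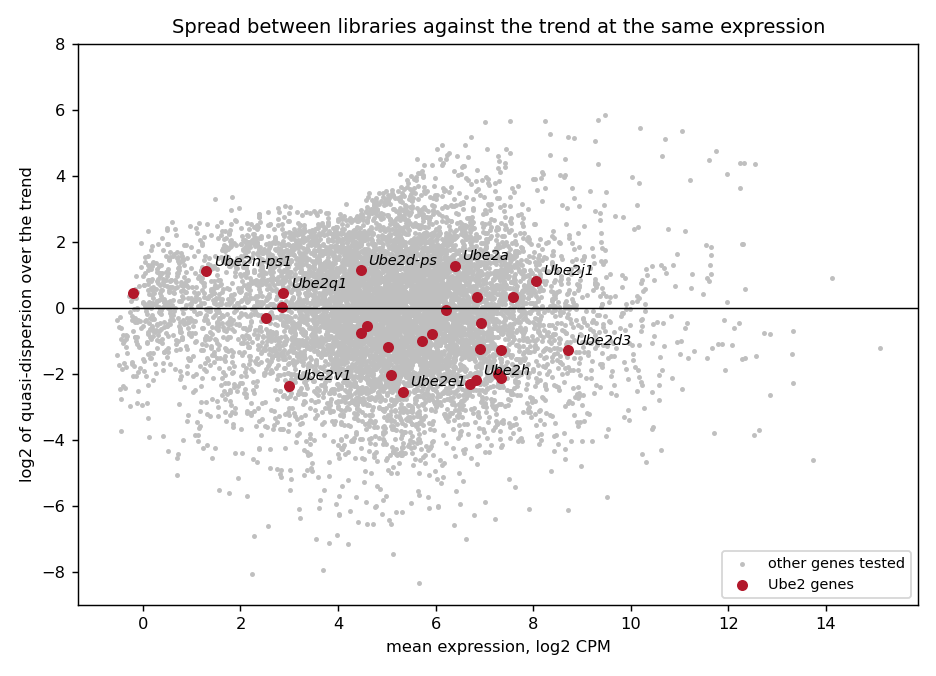
Spread between the 4 libraries, as the log2 of quasi-dispersion over the trend at the same expression, against mean expression in log2 CPM, with 27 of the 28 tested Ube2 genes in red and other tested genes in grey. Ube2a lies highest among the red points at 1.28 and Ube2e1 lowest at -2.54, and none stands outside the grey cloud.

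In the 18 pairs of related or cooperating genes, most kept 1 order across the libraries. The first gene of a pair was higher per kb of exon in 4 of 4 libraries in 9 pairs, the second in 7, and 2 pairs were mixed. Flipping the signs of the 4 log2 ratios in an exact permutation test, taken as two-sided, left p = 0.13 for each of the 16 unmixed pairs. That is the smallest p that 4 libraries allow, and it was 0.14 after adjustment over the 18 pairs. No pair could therefore pass 0.05. In 14 pairs 1 order held in every library on all 4 length settings (all exons, longest transcript, longest coding transcript and no length correction). Per kb of the longest transcript the first gene was higher throughout in 7 pairs, since Ube2d3 over Ube2d2a and Ube2l6 over Uba7 lost their order. The mixed pairs were Ube2q1 over Ube2q2 and Ube2r2 over Cdc34. Ube2r2 over Cdc34 changed direction in replicate 4 alone, and Ube2q1 over Ube2q2 was positive in replicates 2 and 4 and negative in the other 2.

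**Figure D4:**
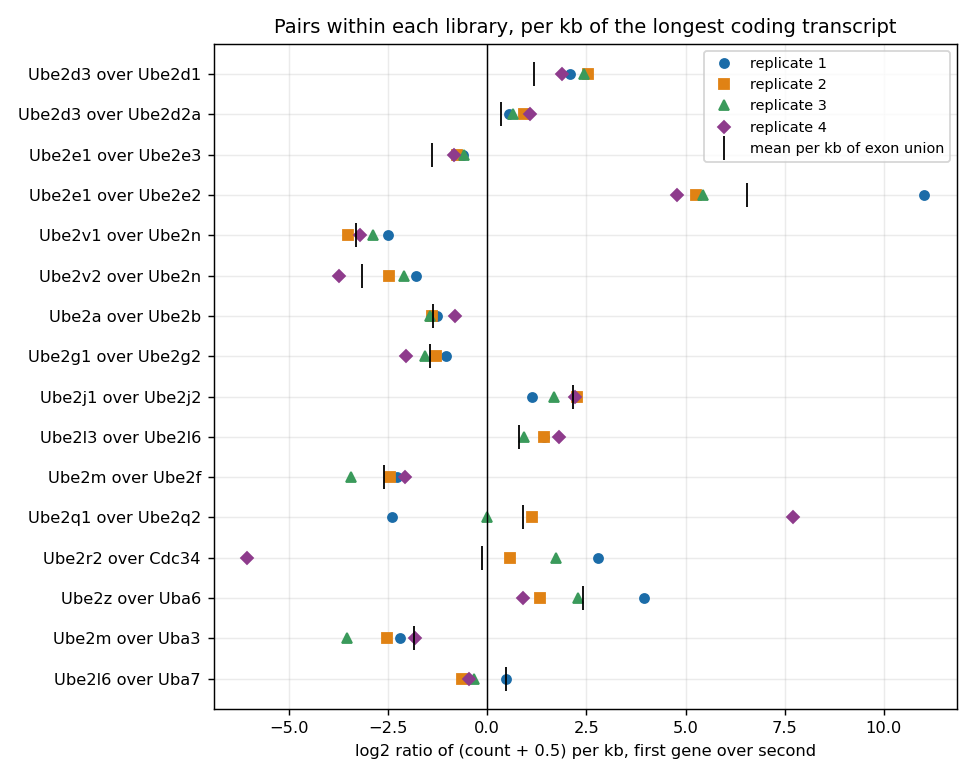
Log2 ratio of (count + 0.5) per kb of the longest coding transcript for 16 of the 18 pairs, first gene over second, with a symbol for each library and a black tick for the mean per kb of all exons. Most pairs keep to 1 side of 0, Ube2q1 over Ube2q2, Ube2r2 over Cdc34 and, on this length, Ube2l6 over Uba7 cross it, and the far right point of Ube2e1 over Ube2e2 is replicate 1, where Ube2e2 had 0 counts.

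Of 10 E1 genes, 8 reached 1 CPM in every library, against 35.5% of protein-coding genes, and the exceptions were Atg7 and Mocs3. In edgeR 8 were tested, with 0 called and 0 at an unadjusted p below 0.05, against 4.3% of all genes tested. Uba1, the main ubiquitin E1, averaged 92.6 ± 30.2 CPM, and Sae1, a subunit of the SUMO E1, averaged 63.1 ± 13.6 CPM. Its partner Uba2 had 88.6, 94.2, 121 and 146 CPM. For NEDD8, the E1 subunit Uba3 had 41.5, 45.9, 53.2 and 56.6 CPM and Nae1 had 42.7, 43.0, 31.3 and 10.02 CPM. Ube2m over Uba3 was -1.84 ± 0.74 log2, with Uba3 higher in every library. For ISG15, Uba7 had 52.2, 93.2, 103 and 58.9 CPM. Ube2l6 over Uba7 was 0.47 ± 0.48 log2 per kb of exon but -0.24 per kb of the longest coding transcript, so the length decides which is higher. Uba6 had 1.65, 19.4, 8.76 and 12.7 CPM, and Ube2z over Uba6 was 2.42 ± 1.35 log2. Atg7, the E1 of autophagy, had 48.3, 29.9, 26.1 and 0 CPM and Mocs3, the E1 for URM1, had 12.4, 5.67, 0.172 and 15.3 CPM.

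Among the 12 genes of ubiquitin and its relatives, all reached 1 CPM in every library, against 35.5% of protein-coding genes. In edgeR 0 of 12 were called and 1 was at an unadjusted p below 0.05, against 4.3% of all genes tested. Ubb, which encodes a chain of ubiquitin units, averaged 2189 ± 485 CPM. Fau, a relative of ubiquitin fused to a ribosomal protein, averaged 525 ± 116 CPM. Rps27a, ubiquitin fused to another, averaged 302 ± 67.9 CPM. Of 9 E2 genes with other symbols, 7 reached 1 CPM in every library, against 35.5% of protein-coding genes. In edgeR 7 were tested, with 0 called and 0 at an unadjusted p below 0.05, against 4.3% of all genes tested. Per kb of the longest coding transcript, Tsg101, a sorting protein with an inactive E2 fold, averaged 64.6 ± 19.8 CPM per kb, Ufc1, the E2 for UFM1, 63.6 ± 25.4, Atg3, an E2 of autophagy, 45.8 ± 9.51, and Aktip 22.9 ± 7.09 CPM per kb.

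Of 45 E3 ligases and cofactors, 38 reached 1 CPM in every library, against 35.5% of protein-coding genes. In edgeR 40 were tested, with 0 called and 3 at an unadjusted p below 0.05, against 4.3% of all genes tested. Named by the rule on mean CPM, the cullin partner Rbx1 averaged 99.0 ± 41.3 CPM per kb of the longest coding transcript, the cullin Cul1 68.0 ± 10.9, the SUMO-targeted ubiquitin ligase Rnf4 41.6 ± 4.14 and the SUMO ligase Pias1 34.6 ± 8.98 CPM per kb. The median log2 ratio to the trend was -0.21 for the tested E1 genes, -0.84 for the modifier genes and -0.36 for the E3 genes. For the E2 genes with other symbols it was -0.79, beside -0.77 for the Ube2 members and -0.08 for all genes.

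The DNA before the start sites was set beside the levels, since the family holds both silent and expressed genes. RefSeq promoters of GRCm38.p6 were matched by symbol for 31 of the 42 members, and CG dinucleotides were counted in the 250 bases before the start, with the median taken over listed starts. The letters searched were CG, which reads the same on both strands. The 20 members that reached 1 CPM in each library had a median of 23.75 CG (9 to 41). The 6 with counts below that had a median of 25.5 (16 to 40), and the 5 at 0 in every library a median of 5 (1 to 7). Over all genes in the table the medians were 16 for the 6329 that reached 1 CPM in each library and 3 for the 8628 at 0 everywhere. Members that reached 1 CPM in each library thus had a higher median than those at 0, the order that all genes showed, and no test was made. The class between, which had the highest median of the members, was not set beside all genes. The ends of the range are shown, with CG in capitals: Ube2j1 at chr4:33031130-33031379 with 41 CG, and Ube2dnl2 at chrX:114907332-114907581 with 1 CG, both on the + strand.
Ube2j1: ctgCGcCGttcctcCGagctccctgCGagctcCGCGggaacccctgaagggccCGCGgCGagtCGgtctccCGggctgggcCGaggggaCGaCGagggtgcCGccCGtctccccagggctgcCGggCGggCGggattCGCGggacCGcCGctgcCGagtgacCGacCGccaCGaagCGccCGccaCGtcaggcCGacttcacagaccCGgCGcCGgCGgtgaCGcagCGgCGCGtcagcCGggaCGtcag
Ube2dnl2: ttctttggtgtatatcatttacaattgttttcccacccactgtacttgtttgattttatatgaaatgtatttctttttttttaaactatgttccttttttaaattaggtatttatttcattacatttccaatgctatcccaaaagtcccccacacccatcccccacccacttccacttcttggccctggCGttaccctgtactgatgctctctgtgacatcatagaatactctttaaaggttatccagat
Ube2j1 is among the 4 highest members per kb, and Ube2dnl2 had 0 counts. Ube2e2 had 40 CG and a mean of 0.820 CPM, so a high CG count and a high level did not always go together. Members with no promoter in the table included Ube2d2a, Ube2d4, Ube2e3, Ube2g2, Ube2l3-ps1, Ube2n-ps1, Ube2nl, Ube2o, Ube2v2 and Ube2w.

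**Figure D5:**
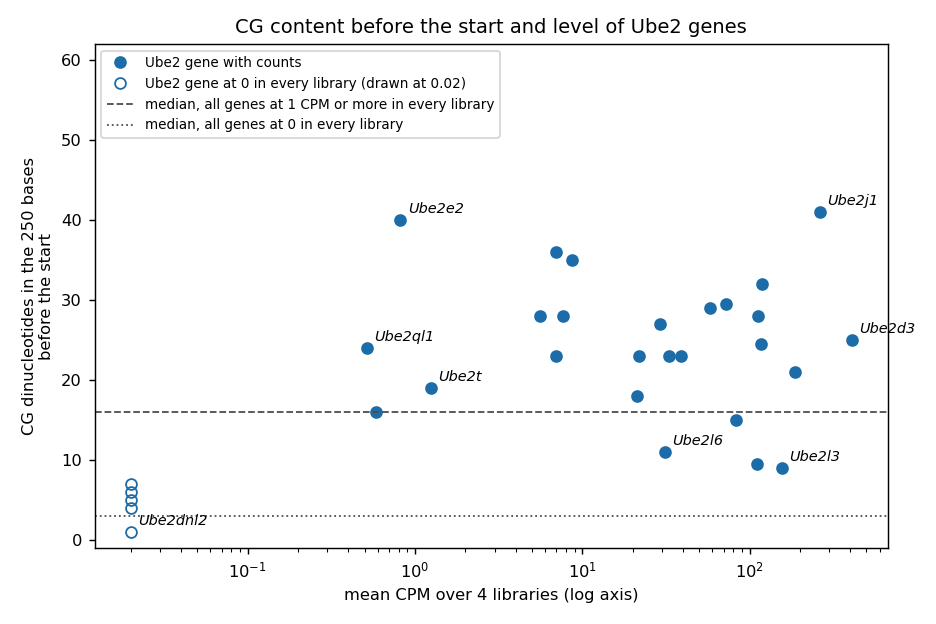
CG dinucleotides in the 250 bases before the start against mean CPM on a log axis for the 31 Ube2 genes in the promoter table, with open circles for genes at 0 in every library. The 5 open circles lie between 1 and 7, all below the filled ones, and the dashed and dotted lines are the medians of all expressed genes (16) and all silent genes (3).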

How the data were processed

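Gene counts as deposited were analysed for 4 libraries of naïve microglia, 1 table of whole-number counts per library. STAR 2.7.10a, SAMtools 1.16.1 and HTSeq 0.11.2 are named with the mouse build GRCm39 in the submitters' processing notes, and no source used here gives the strand setting of the counting. The 5 closing rows, which name no gene, held 20.8% ± 1.28 of the counts (SD, n = 4) and were left out of library sizes. CPM values are counts scaled to 1000000 gene counts per library. Members and lists were chosen with earlier results of these data known.

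The spread between libraries was tested in edgeR 4.0.16 (R 4.3.3) with an intercept-only quasi-likelihood fit, TMM scaling and filterByExpr (minimum count 10). The upper-tail F test set each gene's quasi-dispersion against the trend, with Benjamini-Hochberg adjustment over all genes and a threshold of 0.05. The method was checked on counts simulated with known changes and a capped dispersion. The simulated counts varied less than the real ones, so the check does not show what spread the test can find here. DESeq2 1.42.0 was an alternative, as were other filters, scalings, lengths, pseudocounts and leaving out each library. Pairs were compared as log2 ratios of (count + 0.5) per kb of exon, with exact sign-flip permutation tests. Lengths and coding sequences came from GENCODE M21 on GRCm38 and promoters from RefSeq on GRCm38.p6. Both differ from the authors' build and served only for names, lengths and sequence.

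Members are named, except 1 that is counted in the totals but not reported here, as are 3 genes of the related lists. By rule, values in every library are given for those of the 8 members with the highest mean CPM and of the pairs that are reported, and further ones were added after seeing the data. Of the related lists, E1 genes and the highest genes by mean CPM were named (4 at most). At 20360121 to 23292655 gene counts per library, 3 counts equal 0.129 to 0.147 CPM.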

Additional observations from a re-analysis of the deposited data

Results flagged for a closer look

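A library stood apart from the other 3 in 8 of 50 values examined (31 levels, 18 pair ratios and the summed level). For independent values chance gives about 1 in 20, but the pair ratios and the sum reuse the levels. The share of all genes flagged in the same way was not computed, so the count is not a result about the members. The measure is the gap between the extreme library and its nearest neighbour over the whole range, set against Dixon's 95% critical value for 4 samples.

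Replicate 4 was the high library for Ube2a (gap 0.949 of the range), Ube2j1 (0.939), Ube2d1 (0.886) and the summed level of the members (0.851), and the low library for Ube2k (0.871). It was also the library with the fewest genes detected, and the part of that was not tested.

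The other 3 were not in replicate 4. Ube2d2a was high in replicate 3 (0.980) and Ube2h was high in replicate 1 (0.864). The ratio of Ube2e1 over Ube2e2 was high in replicate 1 (0.895), where Ube2e2 had 0 counts.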

How the results depend on the processing

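The count of members and of all genes whose spread passed the test was 0 under each alternative run: DESeq2 size factors, DESeq2 dispersion outliers, no filter, a robust trend, a filter at a mean of 1 CPM, and each library left out. In edgeR as first run, 17 of 17 tested immediate early genes had an unadjusted p below 0.05, and 0 of them were called. A count of 0 therefore does not show that levels were alike between libraries. No paired analysis was possible because the libraries form 1 group, so no replicate number is shared between groups. Levels of named members kept within their spread in 186 of 186 recomputed values, and pair ratios kept their direction in 137 of 144. Where a pair had the same order in every library, leaving out a library could not reverse it. Leaving out a library cannot move a mean of these libraries beyond its SD, so for those levels the outcome was fixed in advance. The level of Ube2a, for example, went from 82.9 to 58.6 CPM without replicate 4.

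The median log2 ratio of members to the trend was -0.77, -1.35 to -0.92 with a library left out, and -1.18 (all genes 0.39) with genes kept at a mean of 1 CPM or more, a filter chosen after seeing the data that let in 31 members, Ube2r2, Ube2q2, Ube2o and Ube2t among them. Leaving out a library gave 26 to 29 members at 1 CPM in every remaining library, 2397 to 2613 summed CPM, and 9 to 10 pairs with the first gene higher throughout. The counts of members and of pairs could only stay or rise with a library left out. That pair count was 9 as reported, 9 with a pseudocount of 5, 8 with no length correction, 8 per kb of the longest coding transcript and 7 per kb of the longest transcript.

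The 7 reversals fell in 3 pairs. Ube2q1 over Ube2q2 was 0.91 and turned to -1.13 without replicate 4 (-1.13 to 2.24 over the libraries left out). Ube2r2 over Cdc34 was -0.14 and became 1.27 with no length correction, 0.038 with a pseudocount of 5 and 1.79 without replicate 4 (-1.15 to 1.79). In both pairs replicate 4 holds the member near or at 0. Ube2l6 over Uba7 was 0.47 and became -1.27 with no length correction, -0.057 per kb of the longest transcript and -0.24 per kb of the longest coding transcript, a length added after seeing the data. Depth limits the members with few counts, such as Ube2e2, Ube2t and Ube2ql1, where a value at 0 allows up to the floor of 3 counts.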
